A study of Mus musculus with 9 samples.

Results

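Transcytosis is the carriage of material across a cell in vesicles, and in most endothelium many of these vesicles are caveolae, flask-shaped pits of the plasma membrane built from caveolins and cavins. The endothelium of brain capillaries has few such vesicles and no fenestrae, and the lipid transporter Mfsd2a is known in mice to keep transcytosis low there. The 6 genes described here were chosen by symbol from the 32531 gene rows of the count tables. They are Mfsd2a, which brings lysophosphatidylcholine with its fatty acids into the brain; the caveolins Cav1 and Cav2; Plvap, which forms the diaphragms of fenestrae and caveolae; Lsr, a lipoprotein receptor that also builds the junctions where 3 cells meet; and Gpihbp1, which carries lipoprotein lipase across capillary endothelium outside the brain.

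The libraries came from the cerebral cortex of untreated adult control mice of the Abcb1a-TRAP line ES3026, which carry the transgene Abcb1a-EGFP/Rpl10a. In this line, regulatory sequence of the drug efflux pump gene Abcb1a directs a ribosomal protein tagged with green fluorescent protein, so that antibodies to the tag pull down ribosomes with their mRNA, a method known as TRAP. The 9 libraries form 3 groups of 3: ES IP is immunopurified (IP) ribosome-bound RNA prepared by an investigator with the initials ES, JL IP is such RNA prepared by an investigator with the initials JL, and JL input is the total RNA before purification, prepared by JL. All animals are of 1 transgenic line, every group carries the transgene, and separate mice are not stated for the replicates, so that the tests measure how far these libraries spread. By their Ddx3y and Xist counts, given with Gpihbp1, JL replicate 1 came from other material than JL replicates 2 and 3, in IP and input alike. Gene counts per library ran from 31987470 to 46598478. Levels are given as CPM, the count scaled to a library of fixed total, for comparing 1 gene between libraries, and as TPM, which also divides by gene length, for comparing genes with each other.

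The labelled cell type was checked with 15 endothelial marker genes, whose summed level was 689 to 1028 CPM in ES IP, 6450 to 6801 CPM in JL IP and 30.6 to 38.8 CPM in input. The inputs also carry the label endothelial cells, but they held 14976 to 15755 CPM of 10 neuronal genes. The same neuronal sum was 14460 to 15844 CPM in ES IP and 1889 to 2451 CPM in JL IP. The ES IPs therefore stood between the other groups for endothelial RNA and near the inputs for neuronal RNA. Summed smooth muscle markers were also higher in JL IP (86 to 104 CPM) than in input (24.9 to 27.5 CPM). So were fibroblast and meningeal markers (107 to 176 against 53.7 to 58.1 CPM). Of 6 smooth muscle genes 2 were called higher and 2 lower, and of 7 fibroblast genes 4 and 3, against 36.7% and 37.4% of all genes. Their part in the levels of the 6 genes was not tested. Abcb1a itself stood at 44.9 ± 9.21 CPM in ES IP, 466 ± 21.5 CPM in JL IP and 2.16 ± 0.485 CPM in input (mean ± SD, n = 3 each). Rpl10a, whose protein carries the tag, stood at 4.39 ± 2.34 CPM in ES IP, 9.83 ± 0.825 CPM in JL IP and 7.60 ± 0.345 CPM in input, and did not pass the test of JL IP against input (adjusted p = 0.0615), though it passed without JL IP replicate 3 (0.0455). The ES libraries shared 1 sequencing lane, by the lane codes of the deposited files, while JL IP and JL input libraries with the same number shared a lane, and an ES input is not analysed here. Investigator, lane and group cannot be told apart for the ES libraries.

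Among the 6 genes, 4 were far higher in JL IP than in input, 1 did not pass the test and 1 was barely detected. Mfsd2a, Cav1, Cav2 and Lsr rose by 16.6 to 132 fold, Plvap had a log2 fold change of 0.01, and Gpihbp1 was too low in most libraries to enter it. Across all 17357 genes tested with edgeR's quasi-likelihood test, 36.7% were called higher in JL IP at an adjusted p under 0.05 and 37.4% lower, and the median log2 fold change was -0.09; without scaling factors it was -0.35. The 5 tested genes had a median log2 fold change of 4.98. In these bulk samples a larger share of endothelial RNA and a stronger binding of these RNAs to ribosomes cannot be told apart.

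**Figure D1:**
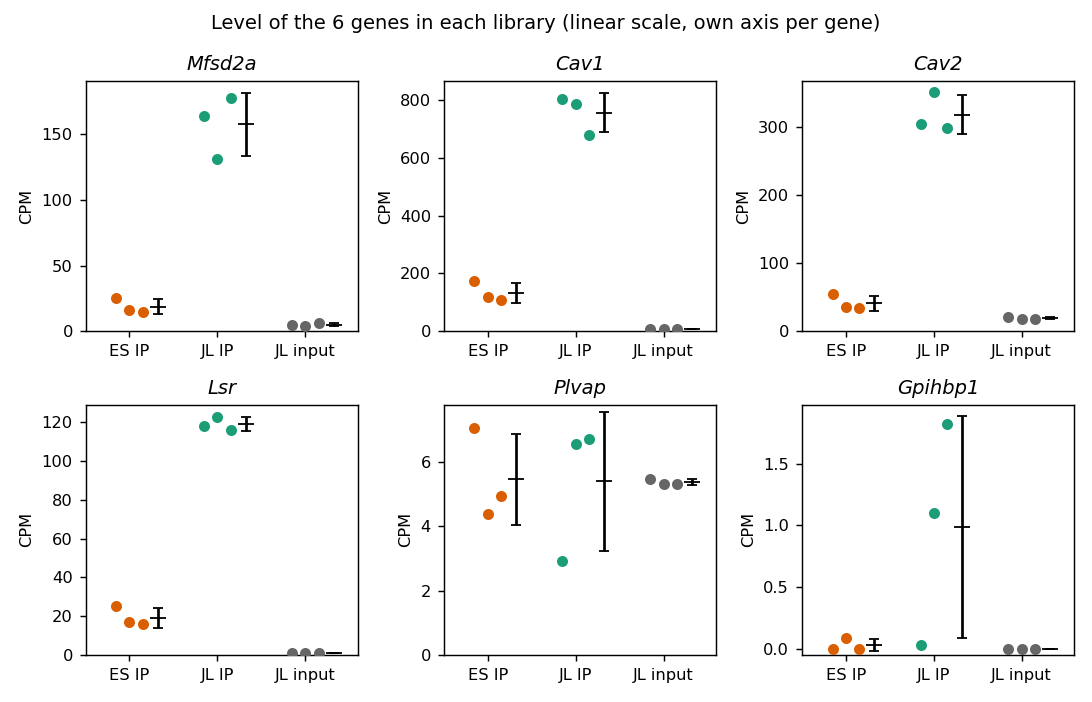
Level of each gene in CPM (linear scale, own axis per gene) in the 3 ES IP, 3 JL IP and 3 JL input libraries; points are libraries, and the bar beside them is the mean with its SD. Cav1 reached 678 to 804 CPM in JL IP against 7.24 to 8.70 CPM in input, while Plvap stayed between 2.91 and 7.05 CPM in all 9 libraries.

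Cav1, the main coat protein of caveolae (chromosome 6, 17306335 to 17341452 on the plus strand in mm10), stood at 173, 119 and 107 CPM in ES IP replicates 1 to 3, at 804, 788 and 678 CPM in JL IP, and at 7.24, 8.70 and 7.70 CPM in input. No library of one group reached the range of another. The log2 fold change of JL IP against input was 6.59 ± 0.12 (SE; adjusted p = 1.97e-09), a fold of 96.1 with a 95% interval of 79.1 to 117. Per length Cav1 was the highest of the 6 genes in JL IP, at 568 ± 46.1 TPM, and in ES IP, at 163 ± 23.6 TPM.

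Cav2, which assembles with Cav1 in caveolae, lies 17219 bases upstream of Cav1 on the same strand (chromosome 6, 17281185 to 17289115), with no annotated gene between them. It stood at 54.1, 35.1 and 34.7 CPM in ES IP, at 305, 351 and 299 CPM in JL IP and at 21.2, 17.7 and 18.5 CPM in input. The 3 groups did not overlap here either. Its log2 fold change of JL IP against input was 4.06 ± 0.11 (adjusted p = 7.87e-09), a fold of 16.6 with a 95% interval of 14.0 to 19.7, below the interval of Cav1.

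The neighbouring caveolin genes thus stood in different proportion in bound and total RNA. Per length, the ratio of Cav1 to Cav2 was 3.09, 3.29 and 2.98 in ES IP, 2.55, 2.17 and 2.20 in JL IP and 0.330, 0.476 and 0.403 in input. Cav1 exceeded Cav2 in every IP library, and Cav2 exceeded Cav1 in every input. The ratio did not overlap between JL IP and input (exact two-sided permutation test, p = 0.1, the smallest that 3 against 3 libraries can give). It was also higher in each ES IP than in any JL IP (exact p = 0.1).

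Mfsd2a (chromosome 4, 122946850 to 122961188, minus strand) stood at 25, 16.5 and 14.4 CPM in ES IP, at 164, 131 and 178 CPM in JL IP and at 5.06, 3.89 and 6.07 CPM in input. Every JL IP library was above every other library, and every ES IP above every input. The log2 fold change of JL IP against input was 4.98 ± 0.19 (adjusted p = 5.48e-08), a fold of 31.5 with a 95% interval of 23.3 to 42.5. In the inputs its level per length, 11 ± 2.24 TPM, overlapped that of Cav1 at 11.3 ± 1.18 TPM. In the JL IPs it reached 181 ± 27.1 TPM, below Cav2 at 247 ± 31.6 TPM, and the libraries of these genes did not overlap.

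Lsr (chromosome 7, 30957770 to 30973464, minus strand) stood at 25.2, 16.9 and 15.7 CPM in ES IP, at 118, 123 and 116 CPM in JL IP and at 0.923, 0.958 and 0.805 CPM in input. The JL IPs lay close together and above all other libraries, and every ES IP was above every input. Its log2 fold change of 7.05 ± 0.11 (adjusted p = 1.51e-09) was the largest of the tested members, a fold of 132 with a 95% interval of 111 to 157. Over 971 bases, its exons overlap those of Gm17077 and Gm4673 on the opposite strand in the annotation. Whether strand was used in counting is not stated, and reads of these genes cannot then be told apart. Per length its level was 37.3 ± 5.63 TPM in ES IP, 142 ± 9.70 TPM in JL IP and 2.04 ± 0.210 TPM in input. The ratio of Lsr to Mfsd2a per length was 1.04 to 1.13 in ES IP, 0.675 to 0.971 in JL IP and 0.137 to 0.255 in input, with no overlap between groups (exact p = 0.1 for each pair).

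**Figure D2:**
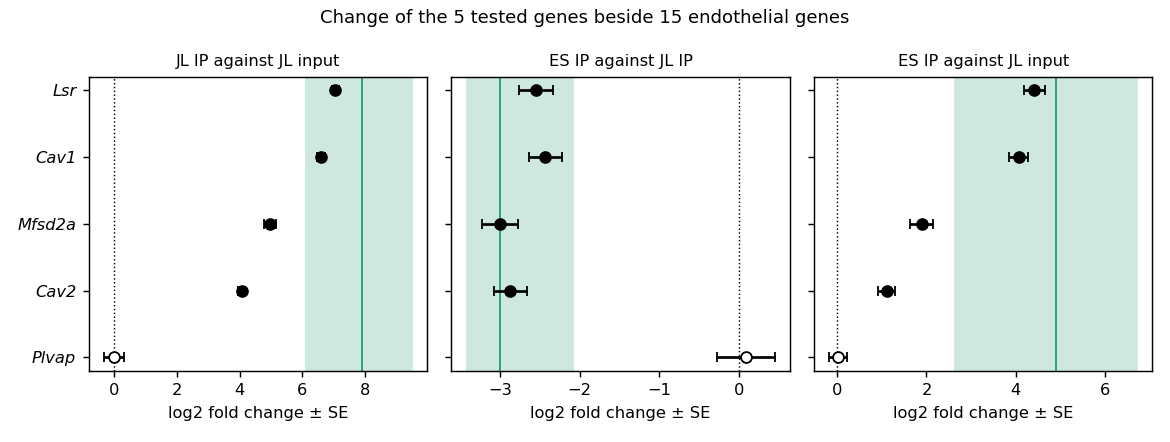
Log2 fold change with its SE for the 5 tested genes in the 3 comparisons; filled points passed an adjusted p of 0.05, the open point of Plvap did not, and the green band and line give the range and median of 15 endothelial marker genes. In JL IP against JL input Lsr (7.05) and Cav1 (6.59) lie inside the band, while Mfsd2a (4.98), Cav2 (4.06) and Plvap (0.01) lie below its lower edge of 6.12.

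The promoters of the 4 genes that moved together are shown as the sequence in front of their start sites. RefSeq's table for GRCm38.p6 holds a start for these 4 genes and is used for the 250 bases before it. The coordinates are chr4:122961189-122961438 for Mfsd2a (minus strand), chr6:17306085-17306334 for the first of 2 listed starts of Cav1 (plus), chr6:17280935-17281184 for Cav2 (plus) and chr7:30973470-30973719 for Lsr (minus). Each is written 5′ to 3′ in lower case, and capitals mark matches on either strand to any of 7 short motifs.
Mfsd2a: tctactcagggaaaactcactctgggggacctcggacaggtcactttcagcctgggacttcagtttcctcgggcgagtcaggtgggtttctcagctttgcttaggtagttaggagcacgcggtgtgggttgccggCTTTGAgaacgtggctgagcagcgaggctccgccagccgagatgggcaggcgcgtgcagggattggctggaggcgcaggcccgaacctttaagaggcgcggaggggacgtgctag
Cav1: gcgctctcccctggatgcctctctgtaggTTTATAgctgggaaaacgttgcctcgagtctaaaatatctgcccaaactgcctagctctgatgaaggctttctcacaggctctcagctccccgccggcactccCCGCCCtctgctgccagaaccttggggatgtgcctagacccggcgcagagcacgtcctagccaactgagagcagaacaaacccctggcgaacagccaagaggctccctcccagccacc
Cav2: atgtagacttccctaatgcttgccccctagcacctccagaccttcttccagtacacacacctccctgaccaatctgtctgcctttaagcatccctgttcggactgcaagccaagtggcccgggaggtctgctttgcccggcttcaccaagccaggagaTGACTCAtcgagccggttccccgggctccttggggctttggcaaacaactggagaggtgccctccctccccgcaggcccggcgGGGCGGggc
Lsr: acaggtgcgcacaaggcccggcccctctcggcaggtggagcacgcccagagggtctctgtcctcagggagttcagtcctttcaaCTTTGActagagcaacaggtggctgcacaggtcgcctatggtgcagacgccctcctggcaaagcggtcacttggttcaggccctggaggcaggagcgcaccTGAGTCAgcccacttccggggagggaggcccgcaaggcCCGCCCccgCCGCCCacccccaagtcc
The motifs, chosen after the sequences had been seen, were GGGCGG (bound by SP and KLF factors), CAGGAA (ETS), CTTTGA (TCF and LEF), ACAAAG (SOX), TAAACA (FOX), TGANTCA (AP-1), and the TATA box TATAAA, and no 2 matches overlapped. GGGCGG occurred once in Cav1 and Cav2, 2 times in Lsr and not in Mfsd2a; 32.7% of 32851 promoter windows of this length hold it. CTTTGA occurred once in Mfsd2a and in Lsr, against 13.8% of windows. TGANTCA occurred once in Cav2 and in Lsr, against 6.75%, and TATAAA once in Cav1, against 12.4%. The Cav1 match reads TTTATA, so TATAAA lies on the opposite strand, near the end of the window farther from the start. Whether it acts as a TATA box was not tested. The single strings searched for ETS, SOX and FOX did not occur in these 4 windows and are held by 25.7%, 16.5% and 12% of all windows. Other forms of these sites were not searched, so the absence of ETS, SOX or FOX sites is not shown. No searched motif was common to the 4 promoters. They held 59.6% to 66.8% G and C, against a median of 52.4% over all windows.

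Plvap (chromosome 8, 71497765 to 71511752, minus strand) was called in none of the 3 comparisons. It stood at 7.05, 4.37 and 4.95 CPM in ES IP, at 2.91, 6.56 and 6.71 CPM in JL IP and at 5.48, 5.31 and 5.31 CPM in input. The groups overlapped, and JL IP replicate 1 was the lowest of the 9 libraries. The log2 fold change of JL IP against input was 0.01 ± 0.32 (adjusted p = 0.982), and its 95% interval runs from a fold of 0.609 to a fold of 1.66. In the inputs Plvap ranked 2 of the 6 genes per length, at 13.3 ± 0.326 TPM, above Cav1 and Mfsd2a, and in JL IP it ranked 5, at 7.13 ± 3.10 TPM. The ratio of Mfsd2a to Plvap per length was 3.14, 3.33 and 2.56 in ES IP, 49.6, 17.6 and 23.4 in JL IP and 0.817, 0.647 and 1.01 in input. These ratios did not overlap between any 2 groups (exact p = 0.1 for each pair).

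Gpihbp1 (chromosome 15, 75596628 to 75599481, plus strand) had 0, 4 and 0 counts in ES IP, 1, 38 and 54 counts in JL IP and no count in the 3 inputs. It was clearly detected in 2 JL IP libraries only. Per library these were 1.0 CPM of the unscaled library (95% Poisson interval 0.711 to 1.38) in JL IP replicate 2 and 1.69 CPM (1.27 to 2.20) in replicate 3, while replicate 1 had 0.0307 CPM (0.000777 to 0.171); intervals and floors cover counting error only. Over the group, the 93 counts of JL IP were, per gene count, 40.8 times a floor of 3 counts over the 3 inputs. The pooled 95% Poisson intervals were 0.733 to 1.11 CPM in JL IP and 0 to 0.0273 CPM in input, so 40.8 is not a lower limit. Replicate 1 lay below the other JL IPs beyond counting error, the intervals of replicates 2 and 3 overlapped, and the pooled value rests on these 2 libraries.

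Gpihbp1 did not enter the tests because fewer than 3 libraries passed the filter on low counts. With the filter lifted it was called higher in JL IP than in input (adjusted p = 0.00455). It was also tested and called without JL IP replicate 1 (adjusted p = 0.000724) or without an input library (0.0179 to 0.0197), where the smaller group eased the filter, so the count of called members was then 5. Against the JL IPs, the ES IPs had 0.0336 times as many Gpihbp1 counts per gene count (exact interval 0.00898 to 0.0891). Without the filter this comparison was called as well (adjusted p = 0.00759). With the filter kept, it was called without ES IP replicate 2 (adjusted p = 0.0149) or JL IP replicate 1 (0.00269). It was not called without ES IP replicate 1 (0.0503) or replicate 3 (0.052). Wherever the filter was kept, Gpihbp1 entered only through JL IP replicates 2 and 3, where it was high. Leaving out JL IP replicate 1 also removed the JL IP library where it was almost absent. These calls are therefore no separate support for a difference.

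The library that was low in Gpihbp1 and Plvap differed from the other JL IPs in further RNAs. Summed over 7 genes each, pericyte markers stood at 23.7, 42.2 and 50.8 CPM and fibroblast and meningeal markers at 107, 162 and 176 CPM in JL IP replicates 1, 2 and 3. Choroid plexus and ependymal markers stood at 53.2, 72.6 and 74.8 CPM. Neuronal markers stood at 1889, 1955 and 2451 CPM, astrocyte markers at 270, 299 and 421 CPM and smooth muscle markers at 86, 93.1 and 104 CPM. Blood cell markers went the other way, at 14.3, 4.73 and 5.26 CPM. The endothelial panel (6706, 6801 and 6450 CPM) and microglial markers (24.6, 24.7 and 25.5 CPM) differed little. No gene of these lists was at 0 in all 3 JL IPs. Folr1 of the choroid plexus had 0, 31 and 29 counts. Stab2, of the peripheral endothelium list whose sum differed little, had 0, 5 and 27. Kcnj8 of the pericytes had 0, 0 and 17, which does not set replicate 1 apart from replicate 2. Anpep alone gave 18.3, 32.9 and 40.4 CPM of the pericyte sum and was called higher in JL IP than in input (3.76), while 5 of the other 6 pericyte genes were called lower (-2.82 to -0.94). Of all genes tested in that comparison, 36.7% were called higher and 37.4% lower. JL IP replicate 1 also carried 2298 counts of the Y-linked gene Ddx3y, against 1 and 0 in replicates 2 and 3, and 51 counts of Xist, the RNA of the inactive X chromosome, against 196 and 177. The inputs of the same numbers had 3249, 1 and 0 counts of Ddx3y and 1, 986 and 1156 of Xist. JL IP and input libraries with the same number thus matched for Ddx3y. Xist was lowest in replicate 1 of both, but JL IP replicate 1 held 51 counts of it and input replicate 1 only 1. In the ES IPs, Ddx3y had 660, 1037 and 855 counts and Xist 35, 181 and 68, so replicate 2, the one ES IP library with Gpihbp1 counts, had the most Xist. The part of these differences in the Gpihbp1 and Plvap values was not tested.

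Purified RNA of ES was then compared with that of JL. Mfsd2a, Cav1, Cav2 and Lsr were lower in ES IP, with folds within the range of endothelial marker genes, and Plvap did not pass. Mfsd2a fell by 3.0 ± 0.23 on the log2 scale (adjusted p = 2e-06), Cav2 by 2.87 ± 0.21 (1.51e-06), Lsr by 2.55 ± 0.21 (2.33e-06) and Cav1 by 2.43 ± 0.21 (3.53e-06). Of 16212 genes tested, 28.2% were called lower and 29.7% higher, with a median of 0.03. The 15 endothelial marker genes were all called lower, from -3.42 to -2.09 with a median of -3.0, so the 4 genes lay within their range. As a share of the JL IP mean, the ES IP level was 11.8% ± 3.58 for Mfsd2a, 13.0% ± 3.48 for Cav2, 16.2% ± 4.37 for Lsr and 17.6% ± 4.62 for Cav1 (SD, n = 3). The panel genes ranged from 8.87% to 22.2%, and Plvap stood at 101% ± 26.1, with a log2 fold change of 0.09 ± 0.36 (adjusted p = 0.844; 95% interval -0.71 to 0.90). ES IP replicate 1 was the highest of its group for Mfsd2a, Cav1, Cav2, Lsr and Plvap.

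Set against the inputs, the ES IPs still held more of these 4 genes. Lsr was 21.4 times as high (log2 fold change 4.42 ± 0.23, adjusted p = 6.9e-06), Cav1 16.8 times (4.07 ± 0.21, 5.92e-06), Mfsd2a 3.71 times (1.89 ± 0.25, 0.000488) and Cav2 2.15 times (1.11 ± 0.19, 0.00167). Plvap did not pass, at 0.02 ± 0.20 (adjusted p = 0.934; 95% interval -0.44 to 0.48). Of 17477 genes tested, 26.9% were called higher (4704) and 25.3% lower (4422). With upper quartile scaling the split was 3705 higher and 5395 lower. Mfsd2a, Cav1, Cav2 and Lsr were called higher with that scaling too, and Plvap did not pass. The JL inputs serve this comparison and the first one, and each IP group serves 2 comparisons, so the 3 comparisons are not independent.

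The levels were also set against the 15 endothelial markers of the same library, as log2(CPM + 0.5) minus the median of the panel. Within JL IP, Cav1 stood 1.16 ± 0.18 above the panel median, Cav2 at -0.09 ± 0.23, Mfsd2a at -1.11 ± 0.15 and Lsr at -1.50 ± 0.14 (SD, n = 3). In the inputs, Cav2 stood at 3.18 ± 0.30, Cav1 at 1.95 ± 0.06, Plvap at 1.44 ± 0.20, Mfsd2a at 1.33 ± 0.46 and Lsr at -0.63 ± 0.15. The JL IP mean minus the input mean was small for Cav1 (-0.79) and Lsr (-0.87) and larger for Mfsd2a (-2.44), Cav2 (-3.27) and Plvap (-7.36), each without overlap (exact p = 0.1). These 15 genes total 30.6 to 38.8 CPM in input, and the differences from the inputs moved with the pseudocount, given with the alternatives. Between the ES and JL IPs the relative levels of Mfsd2a, Cav1, Cav2 and Lsr overlapped, with differences from -0.27 to 0.27, whereas that of Plvap was -3.04 ± 0.19 in ES IP and -5.92 ± 0.69 in JL IP (exact p = 0.1).

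**Figure D3:**
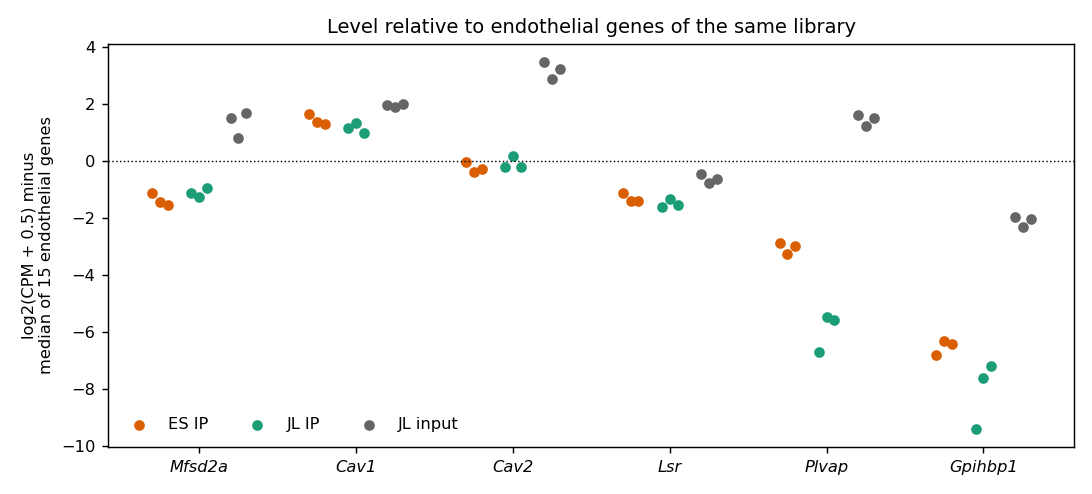
Level of each gene as log2(CPM + 0.5) minus the median of 15 endothelial marker genes in the same library, for the 3 ES IP, 3 JL IP and 3 JL input libraries; 0 is the level of the median marker. Cav1, Cav2, Mfsd2a and Lsr lie at similar heights in ES and JL IPs, while Plvap averages -3.04 in ES IP, -5.92 in JL IP and 1.44 in input. Gpihbp1 had 0, 4 and 0 counts in ES IP and none in input, so its points there are set by the pseudocount and the panel median.

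Genes listed with the caveola coat and neck, flotillins among them, changed in either direction. Of 13 listed genes 12 were tested for JL IP against input, 7 were called higher and 4 lower, against 36.7% and 37.4% of all genes tested, and the list's median was 1.03 (log2), against -0.09. Cavin1, the cavin needed for caveolae to form and listed as Ptrf, had the largest change (7.15 ± 0.11, adjusted p = 1.51e-09), at 139 ± 17.6 CPM in ES IP, 633 ± 49.7 CPM in JL IP and 4.44 ± 0.326 CPM in input. Per length it reached 457 ± 43.6 TPM in JL IP, 0.804 ± 0.0323 times Cav1. The cavins Cavin2 (listed as Sdpr, 6.24 ± 0.13) and Cavin3 (Prkcdbp, 3.92 ± 0.09) also rose, as did Ehd2, the ATPase of the caveola neck (6.78 ± 0.14), its relatives Ehd4 and Ehd1, and Pacsin2, which shapes caveolar membrane (0.46 ± 0.08). Cavin4 (Murc), the cavin of muscle, was lower, at 0.124 ± 0.0702 CPM in JL IP and 1.72 ± 0.250 CPM in input (-3.74 ± 0.58). The muscle caveolin Cav3 was below the filter, with no count in JL IP. The flotillins Flot1 (-0.23 ± 0.09) and Flot2 (-0.65 ± 0.11), which form membrane domains apart from caveolae, were lower as well. Pacsin3, a relative of Pacsin2, was also lower (-1.24 ± 0.19), and Ehd3 did not pass (-0.10 ± 0.16, adjusted p = 0.605). In ES IP against JL IP, which shares the JL IPs, 11 genes were tested. There 7 were called lower, from Ehd2 (-2.38 ± 0.20) to Ehd1 (-0.48 ± 0.17), and 4 higher, with a median of -0.50. Of all genes tested there, 28.2% were lower and 29.7% higher. Pacsin3 was highest (2.38 ± 0.23), at 18.9 ± 2.01 CPM in ES IP and 3.84 ± 0.493 CPM in JL IP. Against input, 10 of 12 genes in ES IP were higher and 1 lower, against 26.9% and 25.3% of all genes, with a median of 1.04.

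**Figure D4:**
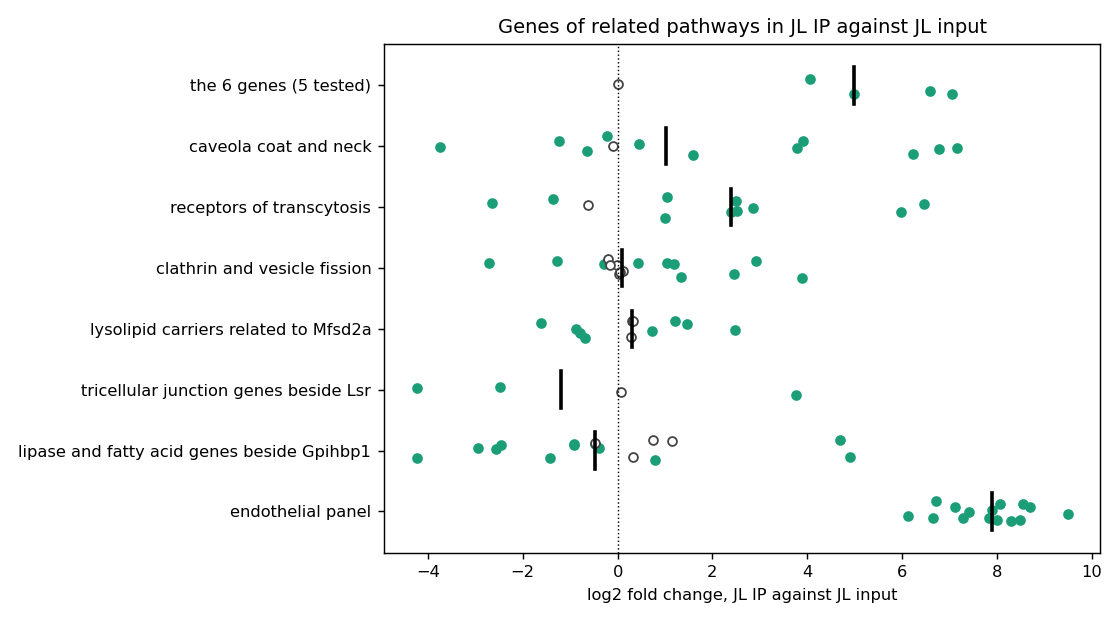
Log2 fold change of JL IP against JL input for each tested gene of the lists; filled points passed an adjusted p of 0.05, open points did not, and black bars are list medians. The caveola list runs from -3.74 (Cavin4) to 7.15 (Cavin1), and the 15 endothelial markers from 6.12 to 9.49.

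Receptors known to carry cargo across the endothelium included 8 of 11 tested that were higher in JL IP than in input and 2 that were lower, against 36.7% and 37.4% of all genes, with a median of 2.40. Acvrl1, a receptor of the TGF-beta family that also takes up low-density lipoprotein, rose most (6.47 ± 0.15), at 130 ± 13.5 CPM in JL IP against 1.46 ± 0.240 CPM in input. Fcgrt, the neonatal Fc receptor for immunoglobulin G and albumin, stood highest of the list per length in JL IP, at 175 ± 12.4 TPM against 5.34 ± 0.459 TPM in input (5.98 ± 0.14). Vldlr, the very-low-density lipoprotein receptor, fell most (-2.64 ± 0.14), at 14.4 ± 3.0 CPM in JL IP and 89.9 ± 1.95 CPM in input. Of 11 receptors tested in ES IP against JL IP, 8 were lower and 1, Vldlr, was higher (2.02 ± 0.24), against 28.2% and 29.7% of all genes, with a median of -2.0. Against input, 4 receptors in ES IP were higher and 3 lower, where 26.9% and 25.3% of all genes were, with a median of -0.12.

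The machinery of clathrin coats and vesicle fission had 16 tested genes, of which 7 were higher in JL IP than in input, 3 lower and 6 did not pass, against 36.7% higher and 37.4% lower of all genes, with a median of 0.09. Its dynamins moved in different directions. Dab2, a clathrin adaptor for lipoprotein receptors, rose most (3.89 ± 0.09), and the widely expressed dynamin Dnm2 stood at 151 ± 9.84 CPM in JL IP against 27.6 ± 0.652 CPM in input (2.46 ± 0.08). Dnm1, the dynamin of synapses, was lowest (-2.71 ± 0.11), at 72.8 ± 10.9 CPM in JL IP against 478 ± 19.1 CPM in input, and Dnm3 was also lower (-1.28 ± 0.08). Dnm2 shares 207 exonic bases with Tmed1 on the opposite strand. Clta, a clathrin light chain and the highest of the list per length in JL IP, did not pass (0.12 ± 0.07, adjusted p = 0.158). Of this list 8 genes in ES IP against JL IP were higher, Dnm1 most (3.94 ± 0.23), and 5 lower, including Dab2 (-2.60 ± 0.17) and Dnm2 (-1.59 ± 0.15). Of all genes tested there, 29.7% were higher and 28.2% lower. Against input, 12 of 16 in ES IP were higher and 0 lower, with a median of 0.60, where 26.9% of all genes were higher and 25.3% lower.

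A list of lipase and fatty acid genes was set beside Gpihbp1, most of them transporters, binding proteins and activating enzymes of fatty acids. Of 16 tested genes 3 passed as higher in JL IP than in input and 9 as lower, against 36.7% and 37.4% of all genes, with a median of -0.47. Lpl, the lipase that Gpihbp1 binds, stood at 6.19 ± 0.546 CPM in ES IP, 1.92 ± 1.13 CPM in JL IP and 10.5 ± 0.575 CPM in input, lower in JL IP than in input by a log2 fold change of -2.46 ± 0.38 (adjusted p = 0.000406). Cd36, a fatty acid transporter of peripheral capillaries, had the largest fall (-4.24 ± 1.0), at 0.0387 ± 0.0670 CPM in JL IP and 0.843 ± 0.188 CPM in input. Angptl4, an inhibitor of Lpl, went the other way, at 26.9 ± 4.65 CPM in JL IP and 0.886 ± 0.386 CPM in input (4.91 ± 0.31, adjusted p = 1.09e-06). Fabp4, a fatty acid binding protein of peripheral endothelium and fat, was called higher too (4.69 ± 0.99), at a low 1.84 ± 1.38 CPM in JL IP. Acsl3, an acyl-CoA synthetase and the highest of this list per length, was lower (-0.92 ± 0.12), and shares 244 exonic bases with Utp14b.

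Relatives and partners of Mfsd2a and Lsr moved in either direction. Of 12 lysolipid and major facilitator carriers, 11 were tested, 4 were higher in JL IP than in input and 4 lower, against 36.7% and 37.4% of all genes, with a median of 0.30. Spns2, the exporter of sphingosine 1-phosphate, had the largest change (2.47 ± 0.07), at 30.7 ± 2.56 CPM in ES IP, 169 ± 3.73 CPM in JL IP and 30.5 ± 1.19 CPM in input. It shares 131 exonic bases with Mybbp1a on the opposite strand. Mfsd6 had the lowest (-1.61 ± 0.08). Mfsd2b, which is nearest to Mfsd2a in sequence, stood at 0.483 ± 0.376 CPM in ES IP, 0.511 ± 0.423 CPM in JL IP and 0.412 ± 0.0782 CPM in input and did not pass in the 3 comparisons. Among 4 relatives and junction genes listed beside Lsr, Marveld2, also called tricellulin, was higher in JL IP (3.76 ± 0.17). It stood at 18.9 ± 1.86 CPM in JL IP against 1.40 ± 0.0392 CPM in input. The Lsr relative Ildr1 (-2.48 ± 0.91) and Marveld3 (-4.24 ± 0.83) were lower at levels under 1 CPM. Ildr2, the highest of these per length, did not pass, at 253 ± 58.6 CPM in JL IP against 239 ± 12 CPM in input (0.08 ± 0.15, adjusted p = 0.634), and was called higher without JL IP replicate 1 (0.27, adjusted p = 0.016).

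Genes with the nearest profile were found by the root mean square difference between log2(CPM + 0.5) values, each gene centred on its own mean over the 9 libraries, among 10242 genes of at least 10 CPM in a group. For Cav1 they were Ehd2, Tagln2 and Trim47 (0.11, 0.11 and 0.12 log2 units), where the median candidate lay at 2.61. For Lsr they were Ets1, a transcription factor of endothelium (0.09), Trim47 and Ehd2 (0.13 each). For Mfsd2a they were Il10rb (0.17), Irf7 (0.19) and Entpd1 (0.20), and for Cav2 Ly6e (0.12), Lyn (0.14) and Sparc (0.14). Plvap was nearest to Camkmt (0.17), Ttc1 and Pgrmc1 (0.18 each); the median candidate lay at 0.66. Gpihbp1 lay farther from its nearest genes, Col6a1 (0.32), Vangl2 (0.33) and Rad9a (0.36). Its levels, 0 to 1.82 CPM, were flattened by the pseudocount of 0.5 CPM, so these matches do not show like folds. Col6a1 stood at 12.5 CPM in JL IP and 3.47 CPM in input, where Gpihbp1 had no count. Irf7, Trim47 and Rad9a share exonic bases with Phrf1, Trim65 and Ppp1ca, as do Acvrl1 with Gm16031 and Dab2 with Gm18888. Of these 18 choices 10 were the same with a pseudocount of 0.1 CPM and 6 with 2 CPM.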

How the data were processed

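Each of the 9 libraries is a deposited table of read counts per gene, made by the authors with STAR 2.0.0e and HTSeq on mm10, per the submitters' processing notes. No source used here gives the annotation, the strand setting or the read filters. Gene counts per library ran from 31987470 to 46598478, and rows that name no gene were left out of these totals. The 6 genes and all lists were chosen with earlier results of these data known.

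Tests of the counts used edgeR 4.0.16 (R 4.3.3) with filterByExpr, TMM scaling and the quasi-likelihood test with Benjamini-Hochberg adjustment over all genes tested at 0.05, on the libraries of the 2 groups compared. The procedure was also run on counts simulated from its own fitted spread with few genes changed. Such a run cannot show how the scaling behaves where most genes are called, as in JL IP against input. CPM use TMM-scaled library sizes. TPM use the union of exons in GENCODE M21, which gave a length to 23892 rows holding at least 81% of gene counts. Ratios and levels relative to the endothelial panel were compared by exact two-sided permutation tests over libraries. Older symbols were matched through synonyms (Ptrf, Sdpr, Prkcdbp, Murc and Mfsd4), and Hba-a1 and Hbb-bt were not matched. Of each list the genes named by rule were those with the largest and smallest log2 fold change of JL IP against input and the highest TPM in the JL IPs; other genes of a list were chosen after their values were seen. For each of the 6 genes the 3 nearest profiles were named. Promoter sequences came from RefSeq (GRCm38.p6), which held 4 of the 6 genes in the table used. Alternatives were DESeq2 1.42.0, other scalings, no filter, no Rn45s row, all 9 libraries in 1 fit, the replicate number as a block, and leaving out each library.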

Additional observations from a re-analysis of the deposited data

How the results depend on the processing

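Mfsd2a, Cav1, Cav2 and Lsr kept their direction and passed in the 3 comparisons under every alternative run, and Plvap passed in none. Log2 fold changes of JL IP against input ranged from 4.72 to 5.13 for Mfsd2a, 6.32 to 6.67 for Cav1, 3.8 to 4.13 for Cav2 and 6.79 to 7.09 for Lsr. For Plvap in JL IP against input, the sign turned with DESeq2 (-0.04), RLE scaling (-0.04), library size alone (-0.24), upper quartile scaling (-0.24) and without Rn45s (-0.01), and ran from -0.17 to 0.31 with 1 library left out. For ES IP against input it turned with library size alone (-0.09) and upper quartile scaling (-0.13) and ran from -0.19 to 0.17 with 1 library left out; in ES IP against JL IP that range was -0.20 to 0.28. Other genes that turned sign were not called in that comparison. In JL IP against input these were Ildr2 (-0.17 with library size alone and with upper quartile scaling; -0.04 to 0.27 with 1 library left out) and Clta (-0.14 and -0.13; called without JL IP replicate 3, adjusted p = 0.0472). In ES IP against input they were Spns2 (-0.00 with DESeq2 and RLE scaling, -0.11 with library size alone, -0.15 with upper quartile scaling, -0.01 without Rn45s; -0.05 to 0.06 with 1 library left out), Snap25 (-0.03) and Ildr2 (-0.02) with upper quartile scaling, and with 1 library left out Ildr2 (-0.10 to 0.32) and Marveld3 (-1.41 to 0.48). Ildr2 in ES IP against JL IP ran from -0.12 to 0.32. Rpl10a, lower in ES IP than in JL IP (-1.09, adjusted p = 0.0197), was not called without ES IP replicate 2 (0.0843) or 3 (0.0799). In ES IP against input it was not called (-0.80, adjusted p = 0.0645), but passed with DESeq2 (0.0357), library size alone (0.043), upper quartile scaling (0.03), the replicate block (0.0186) and without ES IP replicate 1 (7.6e-05). Cavin4, lower in ES IP than in input, was not called without ES IP replicate 2 (0.0703) or input replicate 1 (0.07) or 3 (0.0666). The cause was not tested.

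Levels relative to the endothelial panel moved with the pseudocount. With 0.1 CPM, JL IP minus input was -1.02 for Cav1 and -0.68 for Lsr, ES IP minus input -0.74 for Cav1 and -4.77 for Plvap, and ES IP minus JL IP 0.36 for Gpihbp1. With 2 CPM, JL IP minus input was -0.27 for Cav1, -2.61 for Cav2, -6.57 for Plvap and -1.15 for Lsr, and ES IP minus input -2.23 for Mfsd2a, -0.02 for Cav1, -2.75 for Cav2, -3.76 for Plvap, -0.91 for Lsr and -3.74 for Gpihbp1. With the mean of the panel in place of its median, ES IP minus JL IP for Cav2 was 0.01 against -0.15. The pseudocounts tried for the nearest profiles were chosen after seeing the data.

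With the replicate number as a block, 6124 genes were higher and 6307 lower in JL IP than in input, and the calls of the 5 tested genes among the 6 did not change; Plvap was -0.07 there and -0.00 in ES IP against input. The correlations of deviations between JL IP and input libraries of the same number were 0.0412, 0.0232 and 0.0376, each the highest for its number, but not over 0.1, and the labels state no pairing, so the block was kept as an alternative. The Ddx3y counts match by number between JL IP and input, and Xist was lowest in replicate 1 of both. These counts are a hint from the data that these numbers share material, but they do not tell replicates 2 and 3 apart. For Gpihbp1, 3 counts equal 0.0644 to 0.0938 CPM in a library.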
